A study of Homo sapiens with 15 samples.

Results

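Adrenomedullin (ADM) and 9 further genes known from the response to low oxygen (VEGFA, KDR, HIF1A, EGLN3, CA9, CA12, ANGPTL4, NDRG1 and BNIP3) were followed across 3 perturbations of the corepressor CtBP2 in MDA-MB-231 cells, a triple-negative breast cancer line. Their probes were found by gene symbol, listed or current, in the annotation of the arrays, and they make up 10 of the 30988 genes and 18 of the 41000 probes. The genes were chosen by their log2 ratios of treated to control signal on these same arrays, so the ratios of all 10 are given as a description, with no p, and the calls of the fit across all genes are counted once for them without being read as a result. The study hybridized 15 Agilent whole human genome arrays in 2 colors, 5 biological replicates for each treatment. In shCtBP2 cells CtBP2 was silenced by a stably transfected short hairpin RNA, and the methods describe selection of the transfected cells, with scrambled-hairpin cells as their control. HIPP and P4 are small-molecule CtBP2 inhibitors, an oxime and a hydrazone made from phenylpyruvate, and cells received either one for 24 h. On every array the RNA of treated cells carried Cy5 and that of control cells Cy3, and the labels name untreated MDA-MB-231 cells as the control throughout. The concentrations of HIPP and P4 used for the arrays and whether arrays shared a control extract are not given in the sources used here. No hypoxic culture of these cells is described in the labels or methods.

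When oxygen is plentiful, prolyl hydroxylases of the EGLN family mark the alpha subunits of hypoxia-inducible factor (HIF) and VHL directs them to degradation. When oxygen falls, the alpha subunits persist, pair with ARNT and switch on genes for blood vessel growth, glucose use, pH control and the removal of mitochondria. ADM, a vasodilating peptide hormone, VEGFA, the main angiogenic growth factor, and CA9, a cell-surface carbonic anhydrase, are textbook targets of this pathway, although several of its targets also answer to other stress pathways. In breast tumors these genes are widely read as signs of poor oxygen supply.

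A value below is the log2 ratio of treated to control signal, averaged over the probes of a gene, so that 1 unit is a doubling. RNA was taken from whole cultures, in which fewer cells of a type and less RNA per cell cannot be told apart. A gene counts as called when limma's adjusted p was under 0.05 over all genes tested and its fold change reached the threshold the methods set for that treatment, 1.5-fold for shCtBP2, 2.5-fold for HIPP and 1.8-fold for P4. Counts therefore cannot be set against each other between treatments. Signals well above background were found for 65.2 to 77.5% of gene spots in the treated and 64.9 to 81.0% in the control channel, and 0 spots were saturated. Without a dye swap, a dye effect of a gene cannot be told apart from a treatment effect. CTBP2 itself, the hairpin target, had a log2 ratio of −0.41 ± 0.11 (SD, n = 5) in shCtBP2 cells, from −0.59 to −0.29, with an adjusted p of 0.0595, and 0.57 ± 0.36 with HIPP. Of the markers of a mesenchymal breast line, VIM, CD44, CAV1 and AXL were well above background in the control channel on all 15 arrays. The luminal markers PGR and CDH1, the endothelial marker TEK and the leukocyte marker PTPRC were above it on 0 arrays in either channel. Other genes of these lists were above it in the control channel, namely GATA3 and FOXA1 (15 arrays) and ESR1 (11) of the luminal list, PECAM1 (15), VWF (10) and CDH5 (5) of the endothelial list, and CD14 (15) and CD3E (14) of the leukocyte list. Some of these markers also moved with the treatments. In shCtBP2 cells CAV1 had −0.48 ± 0.15 (adjusted p = 0.0083) and FOXA1 0.28 ± 0.16 (adjusted p = 0.0331), both short of the fold threshold. PECAM1 had −1.95 ± 0.26 with HIPP (adjusted p = 6.54e-08, called) and −0.74 ± 0.40 with P4 (adjusted p = 0.00132), and CAV1 had −2.07 ± 0.29 and −1.38 ± 0.18 (adjusted p = 5.41e-09 and 7.63e-07, both called). CD44 had 1.40 ± 0.28 with HIPP (adjusted p = 6.97e-08, called) and 0.45 ± 0.19 with P4 (adjusted p = 0.0038), and AXL −1.05 ± 0.26 with HIPP and −0.75 ± 0.31 with P4 (adjusted p = 7.92e-06 and 0.0005, short of the fold thresholds). The part of cell identity or other cell types in the ratios was not tested.

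The hypoxia response element, the site that HIF binds, holds a core of 5 bases, ACGTG or GCGTG. Of the 10 genes, 8 matched an entry of the RefSeq promoter table (GRCh38.p14), and VEGFA and NDRG1 did not. In the 250 bases before the annotated start, 6 of the 8 (75%) held at least 1 core on either strand, against 43.2% of 35116 promoters of that length. KDR and EGLN3 held none in this window. The promoters of 3 genes are shown because ADM and ANGPTL4 had large ratios and BNIP3 held the most cores, with every core in capitals as it reads on the gene's strand.
ADM: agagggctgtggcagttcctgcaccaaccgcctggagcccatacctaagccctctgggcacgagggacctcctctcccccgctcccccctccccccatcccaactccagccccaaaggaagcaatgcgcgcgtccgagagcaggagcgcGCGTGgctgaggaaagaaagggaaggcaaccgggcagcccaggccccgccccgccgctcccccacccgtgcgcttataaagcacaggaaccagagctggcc
ANGPTL4: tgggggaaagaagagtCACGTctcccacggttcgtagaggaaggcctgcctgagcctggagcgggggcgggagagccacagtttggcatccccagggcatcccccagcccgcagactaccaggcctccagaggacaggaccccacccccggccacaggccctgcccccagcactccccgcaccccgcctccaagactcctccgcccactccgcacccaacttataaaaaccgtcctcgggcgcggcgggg
BNIP3: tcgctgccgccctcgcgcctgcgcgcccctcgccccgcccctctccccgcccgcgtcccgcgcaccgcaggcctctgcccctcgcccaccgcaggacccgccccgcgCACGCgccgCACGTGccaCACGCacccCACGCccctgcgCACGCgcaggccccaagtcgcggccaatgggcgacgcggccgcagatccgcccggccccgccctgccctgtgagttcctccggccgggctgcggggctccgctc
The ADM stretch is chr11:10304823-10305072 on the plus strand, with 1 core, GCGTG, that begins 101 bases before the start. ANGPTL4 is chr19:8363905-8364154 on the plus strand and holds CACGT, the reverse complement of ACGTG, 234 bases before the start. BNIP3 is chr10:131981924-131982173 on the minus strand and holds 6 cores, of which ACGTG and its reverse complement overlap in CACGTG and the other 4 read CACGC, the reverse complement of GCGTG. CA9 held CACGT 18 bases before its start. A match of letters is a description of the window and not evidence of binding.

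ADM was the member that lay below control on all shCtBP2 arrays and above control on all HIPP arrays. In shCtBP2 cells its log2 ratios were −0.55, −1.21, −1.48, −1.52 and −1.26 in replicates 1 to 5. With HIPP they were 1.53, 2.05, 1.71, 0.44 and 2.23, and with P4 0.36, 0.22, −0.38, −0.23 and −0.02. The P4 arrays lay on either side of control, and the 3 ranges did not overlap. The mean of −1.20 ± 0.39 (SD, n = 5) in shCtBP2 cells is a 2.30-fold lower signal, 1.59 ± 0.70 with HIPP is 3.01-fold higher, and P4 gave −0.01 ± 0.30. The 1 ADM probe, on chromosome 11 from 10285356 to 10285415 in the array's annotation (build hg17), is printed 10 times on each array, and the SD over these spots was 0.02 to 0.06. The SD between replicates, 0.30 to 0.70, was well above that between spots. HIPP replicate 4 was the lowest HIPP array, and without it the mean was 1.88. The processed control signal of ADM was 1360 to 1840 units on the shCtBP2 arrays, 1905 to 3408 on the HIPP arrays and 1284 to 2500 on the P4 arrays, and its treated signal was 594 to 932, 3322 to 12551 and 1438 to 2468.

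**Figure D1:**
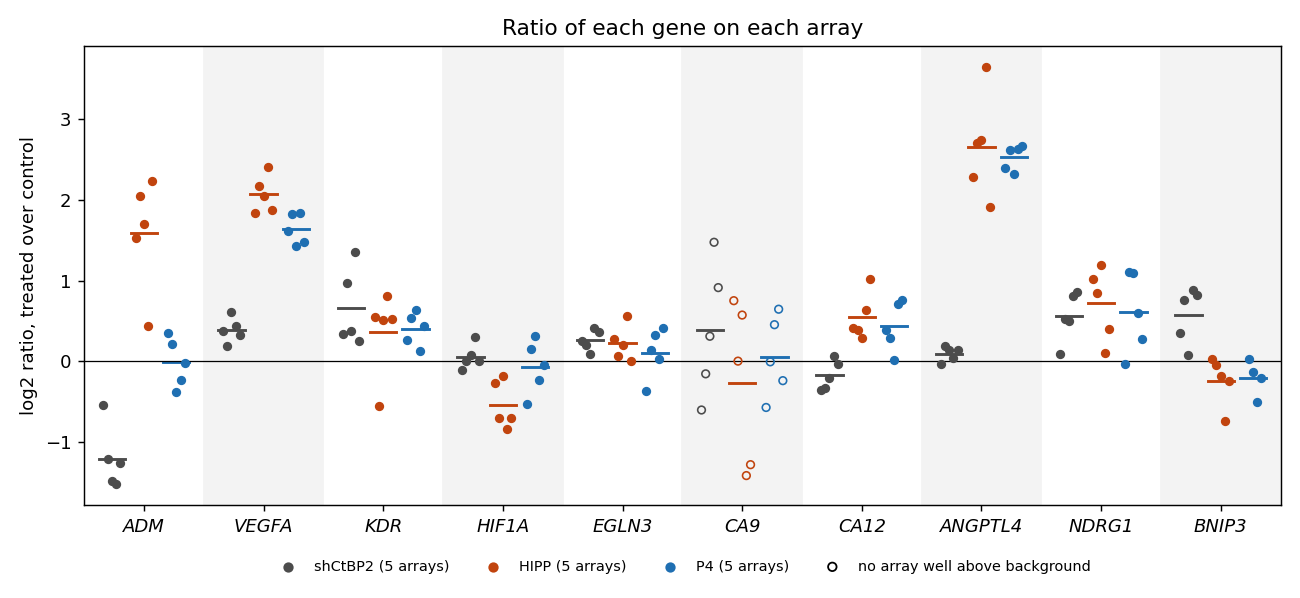
Log2 ratio of treated to control signal (vertical axis) of the 10 genes on each of the 15 arrays, with points for arrays, bars for the mean of 5 (4 for BNIP3 with P4) and open points where a gene was not well above background on any array of a treatment. ADM lies from −1.52 to −0.55 in shCtBP2 cells and from 0.44 to 2.23 with HIPP, while VEGFA and ANGPTL4 are at 1.43 or above on every HIPP and P4 array.

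The arrays lay on 4 slides, and 2 of these held arrays of more than 1 treatment. P4 replicates 1 to 4 filled a slide of their own that was the only one scanned on another day, so for these 4 arrays P4 cannot be told apart from slide and scan day. P4 replicate 5 shared a slide and day with HIPP arrays and had −0.02 for ADM, 1.48 for VEGFA and 2.67 for ANGPTL4. On the slide with HIPP replicates 4 and 5 and shCtBP2 replicates 1 and 2, ADM averaged 1.34 for HIPP and −0.88 for shCtBP2. On the slide with HIPP replicates 1 to 3 and P4 replicate 5 it averaged 1.76 for HIPP and had −0.02 for P4. The signs of ADM for HIPP and shCtBP2 were thus the same within the slide as over all arrays. With slide as a fixed block the fitted values were −0.80 for shCtBP2, 1.42 for HIPP and −0.36 for P4. At the adjusted threshold and the fold threshold of each treatment, 2 of the 10 members were called in shCtBP2 cells (ADM lower, KDR higher), where 6.57% of the 27579 genes tested were called (3.34% higher and 3.23% lower). With HIPP 3 were called (ADM, VEGFA and ANGPTL4, all higher) of 9 tested, where 7.05% of genes were called (3.43% higher and 3.62% lower), and with P4 2 (VEGFA and ANGPTL4, higher) of 8 tested, where 8.46% were (4.29% higher and 4.17% lower). At any fold change 13.5% of genes passed in shCtBP2 cells (6.59% higher, 6.95% lower), 48.8% with HIPP (24.9% and 23.9%) and 31.9% with P4 (17.1% and 14.9%). These calls rest on the ratios by which the set was proposed, and nothing is read from them.

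Most receptor subunits of the ADM system were near background, and RAMP1 was below control with both inhibitors. ADM acts through CALCRL paired with RAMP2 or RAMP3, while CALCRL with RAMP1 forms the receptor of a related peptide, CGRP. CALCRL was well above background on 0 of 15 arrays in the treated and 1 in the control channel, RAMP2 on 0 in both, and RAMP3 on 2 and 4. RAMP1 was above it on all 15 in both channels. Its log2 ratio was −1.30 ± 0.36 with HIPP, from −1.90 to −0.98 (adjusted p = 4.46e-07), and −0.78 ± 0.18 with P4, from −0.99 to −0.59 (adjusted p = 0.000186), below control on all 10 arrays. Both passed the adjusted threshold and fell short of the fold thresholds, at 2.46-fold and 1.72-fold, which slide as a fixed block brought past them (−1.38 and −0.86), as did leaving out HIPP replicate 1 or 3 (−1.35 and −1.38). In shCtBP2 cells RAMP1 had 0.15 ± 0.13 (adjusted p = 0.451). Of the 9 genes of the ADM list on the arrays, 0 were called in shCtBP2 cells (9 tested, 0 at any fold and 1 at an unadjusted p under 0.05) and 0 with HIPP (7 tested, 1 higher and 2 lower at any fold, and 3 and 2 unadjusted). With P4 1 of 9 was called, ADM2, a related peptide hormone chosen here after its values were seen. At any fold 1 was higher and 2 lower with P4, and 3 and 2 unadjusted. The all-gene shares called were 6.57, 7.05 and 8.46% in shCtBP2, HIPP and P4. At any fold 0, 42.9 and 33.3% of the list passed, beside 13.5, 48.8 and 31.9% of all genes. With P4 ADM2 was well above background on 2 of 5 treated and 0 of 5 control arrays, with an adjusted p of 0.000279. Its treated signal there was at least 1.15-fold higher than control after normexp correction, loess and quantile normalization. Its call was lost under normexp and loess, over spots above background alone and with slide as a fixed block. With HIPP ADM2 was above control on all 5 arrays, at 1.18 ± 0.78 (adjusted p = 0.00246), short of the fold threshold. It was well above background there on 4 treated and 1 control arrays. The median ratio of the list was 0.22, 0.02 and 0.22 in shCtBP2, HIPP and P4, beside 0.04, 0.08 and 0.11 over all genes tested.

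VEGFA was above control on all 15 arrays, by a small amount in shCtBP2 cells and by a large one with the inhibitors. Its log2 ratios were 0.38, 0.19, 0.61, 0.44 and 0.32 in shCtBP2 cells, a mean of 0.39 ± 0.16 (SD, n = 5). They were 1.84, 2.18, 2.05, 2.41 and 1.87 with HIPP, a mean of 2.07 ± 0.23 or 4.20-fold, and 1.62, 1.82, 1.43, 1.84 and 1.48 with P4, a mean of 1.64 ± 0.19 or 3.11-fold. The lowest HIPP array and the highest P4 array were both at 1.84 after rounding, so the order of the inhibitors rests on a narrow gap, while both groups lay clear of the shCtBP2 arrays. VEGFA is listed on the arrays under its older name VEGF, with 4 probes on chromosome 6 that were above background in both channels on all arrays. With HIPP the 4 probes averaged 3.39, 1.94, 1.29 and 1.65, and with P4 2.17, 1.62, 1.58 and 1.18, in the order in which the plot of single probes shows them. The size of the ratio hence depended on the probe, although its sign did not, and the probe with the highest mean signal would have given 10.5-fold for HIPP and 4.51-fold for P4. With normexp background correction and loess normalization the mean over probes was 1.47 with HIPP and 1.35 with P4.

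KDR, the main receptor for VEGFA and typical of endothelial cells, was near the background of the arrays. One probe was well above background on 0 arrays in either channel. The other was above it on 3 of 5 treated and 1 of 5 control shCtBP2 arrays, on 2 and 3 HIPP arrays and on 0 and 2 P4 arrays. The mean over both probes in shCtBP2 cells was 0.66 ± 0.49, from 0.25 to 1.36, and normexp correction with loess turned its sign, to −0.03. The ratios of KDR were 0.37 ± 0.53 with HIPP and 0.40 ± 0.20 with P4, and the ranges of all 3 treatments overlapped. CDH5, an endothelial cadherin, was also called higher in shCtBP2 cells (adjusted p = 0.0210, above control on 4 of 5 arrays). It was well above background on 2 treated and 0 control arrays there, so no fold is given. With P4 it was above control on all 5 arrays (adjusted p = 0.0498, not called) and above background on 1 treated and 2 control arrays. Its part in the KDR ratio was not tested. FLT1, the other VEGFA receptor on endothelial cells, was above background on 0 of 15 arrays. Of the 8 related ligands and receptors on the arrays 1 was called, VEGFD, a lymphatic growth factor, with P4. The all-gene shares called were 6.57, 7.05 and 8.46% in shCtBP2, HIPP and P4. VEGFD had 1.31 ± 0.49 with P4, from 0.63 to 1.98 (adjusted p = 0.00252), 0.60 ± 0.66 with HIPP (adjusted p = 0.0814) and −0.61 ± 0.81 in shCtBP2 cells, where it was not tested. With P4 it was called in 14 of 17 alternative settings. It was not called with slide as a fixed block or with normexp correction and loess, at 0.48. VEGFB and PGF, further ligands of FLT1 chosen after their values were seen, lay below control on all 10 inhibitor arrays, short of the fold thresholds. VEGFB had −0.85 with HIPP and −0.53 with P4 (adjusted p = 1.86e-05 and 0.00238), and PGF −0.93 and −0.78 (adjusted p = 2.81e-05 and 0.00042). NRP1 and VEGFC, chosen in the same way, were also short of the fold thresholds. NRP1 lay above control on all 10 arrays, at 0.50 and 0.52 (adjusted p = 0.00273 and 0.00394). VEGFC had 0.41 with HIPP and −0.17 with P4 (adjusted p = 0.000447 and 0.0926). At any fold 0 genes of the list were higher and 1 lower in shCtBP2 cells, 2 and 2 with HIPP and 3 and 2 with P4, or 20, 57.1 and 62.5% of those tested, beside 13.5, 48.8 and 31.9% of all genes. The list had 5, 7 and 8 genes tested in shCtBP2, HIPP and P4 and medians of 0.15, 0.41 and 0.12.

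**Figure D2:**
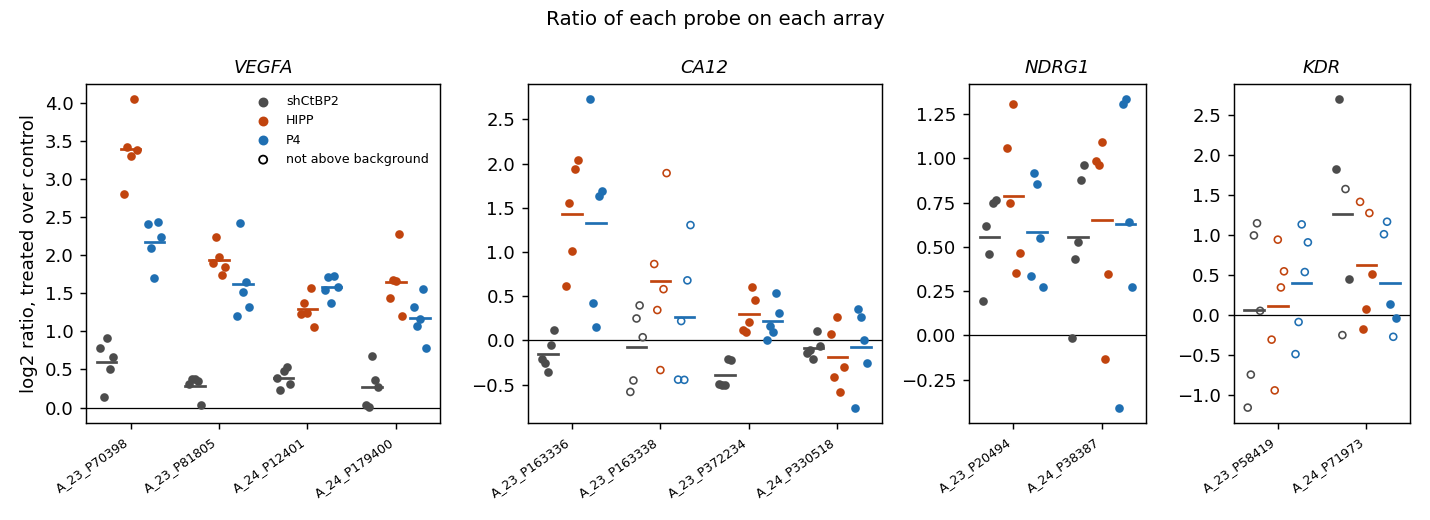
Log2 ratio of treated to control signal (vertical axis) of each probe of the 4 genes with more than 1 probe, with points for the 5 arrays of a treatment, bars for means and open points where the probe was not well above background in either channel of that array. The 4 VEGFA probes are above 0 on all arrays and range in mean from 1.29 to 3.39 with HIPP, whereas the 4 CA12 probes have different signs.

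HIF1A, the oxygen-regulated alpha subunit of HIF-1, was close to control in shCtBP2 and P4 arrays and below it with HIPP. Its log2 ratios with HIPP were −0.27, −0.70, −0.17, −0.84 and −0.70, a mean of −0.54 ± 0.29 (SD, n = 5) or 1.45-fold lower. In shCtBP2 cells the mean was 0.05 ± 0.15, from −0.11 to 0.30, and with P4 −0.07 ± 0.33, from −0.52 to 0.31. The HIPP range did not overlap that of shCtBP2 but overlapped that of P4. Its probe, chromosome 14 from 61284598 to 61284657 (hg17), is also printed 10 times, and the SD over the spots of an array was 0.01 to 0.06. HIF1A is regulated mainly through the stability of its protein, which these arrays do not measure. EGLN3, a prolyl hydroxylase that is itself a HIF target, had 0.27 ± 0.13 for shCtBP2, 0.22 ± 0.22 with HIPP and 0.11 ± 0.30 with P4, the 3 ranges overlapped, and slide as a fixed block gave 0.10 for shCtBP2.

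EPAS1, which encodes the alpha subunit of HIF-2, showed the opposite sign in knockdown and inhibitor arrays. It fell in shCtBP2 cells, with log2 ratios of −1.36, −1.68, −1.81, −1.20 and −1.99, a mean of −1.61 ± 0.32 or 3.05-fold lower (adjusted p = 5.69e-06), and it was called in all 17 alternative settings. With HIPP it had 0.80 ± 0.39, from 0.18 to 1.19 (adjusted p = 0.00029, short of the fold threshold), and with P4 0.44 ± 0.20, from 0.25 to 0.75, where the filter on low variation left it untested. With normexp correction and loess its ratio was −0.69 in shCtBP2 cells, 0.27 with HIPP, where the adjusted p rose to 0.0636, and 0.25 with P4. ARNT2, a beta subunit, fell with HIPP, to a log2 ratio of −1.95 ± 0.55, below control on all 5 arrays (adjusted p = 1.09e-06, with −1.18 and no call with normexp correction and loess), while it had 0.59 ± 0.19 in shCtBP2 cells (adjusted p = 0.0545) and −0.33 ± 0.50 with P4 (adjusted p = 0.184). VHL, the substrate receptor that targets hydroxylated HIF, had 0.57 ± 0.22 with HIPP (adjusted p = 0.000293, short of the fold threshold), 0.09 ± 0.07 in shCtBP2 cells and −0.01 ± 0.26 with P4. EGLN1, the principal prolyl hydroxylase, had 0.49 ± 0.53 with HIPP (adjusted p = 0.0263, above control on 4 of 5 arrays). Of the 9 genes for HIF subunits and their regulators, 1 was called lower in shCtBP2 cells (of 7 tested) and 1 lower with HIPP (of 8), beside 3.23 and 3.62% of all genes, and 0 with P4 (of 6, with 2 higher and 2 lower both at any fold and at an unadjusted p under 0.05). With HIPP 4 were higher and 2 lower at any fold. The any-fold shares of the list were 14.3, 75 and 66.7% in shCtBP2, HIPP and P4, beside 13.5, 48.8 and 31.9% of all genes.

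CA9 could not be measured, because its single probe was well above background on 0 of the 15 arrays in either channel. CA12, another membrane carbonic anhydrase, was well above background, but its probes disagreed. Over all 4 probes it had −0.17 ± 0.18 for shCtBP2, 0.55 ± 0.29 with HIPP and 0.43 ± 0.31 with P4, with log2 ratios of 0.42, 0.39, 0.29, 0.63 and 1.02 on the HIPP arrays. One probe, on chromosome 15 from 61401727 to 61401786 (hg17), averaged 1.43 ± 0.61 with HIPP and 1.33 ± 1.05 with P4. Another, from 61404114 to 61404173, averaged 0.30 ± 0.22 and 0.22 ± 0.21, and another, from 61403552 to 61403611, −0.19 ± 0.35 and −0.08 ± 0.45. The remaining probe was above background on 0 arrays. With slide as a fixed block the gene had −0.61 in shCtBP2 cells and 0.96 with P4. Under normexp and loess it had 0.15 with HIPP. Among the 13 other carbonic anhydrases on the arrays, CA2, a cytosolic form, rose in shCtBP2 cells by 0.65 ± 0.31 (adjusted p = 0.0256), was not called without replicate 1, 2 or 4 (0.54, 0.64 and 0.64) and had 1.23 with slide as a fixed block. CA7, chosen after its values were seen, was called lower there (adjusted p = 0.0426). It was above background on 1 treated and 2 control arrays of 5, so its ratio of −0.73 is limited by signal. Its call was lost under normexp and loess, over spots above background alone and with slide as a fixed block. CA2 had −1.23 ± 0.55 with HIPP (adjusted p = 4.86e-05) and −0.71 ± 0.36 with P4 (adjusted p = 0.00747), below control on all 10 arrays and short of both fold thresholds, but it was called lower with slide as a fixed block (−1.33 and −1.34) and, with HIPP, on background-subtracted signals (−1.35) and without replicate 1 (−1.46). In the fit reported 0 of the 13 were called there (12 tested with each, 2 higher and 2 lower with HIPP and 2 higher and 1 lower with P4 at any fold, and 2 and 2 with HIPP and 3 and 1 with P4 at an unadjusted p under 0.05). In shCtBP2 cells 2 of 13 tested were called, beside 6.57% of all genes, and with HIPP and P4 33.3 and 25% passed at any fold, beside 48.8 and 31.9%.

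ANGPTL4, a secreted inhibitor of lipoprotein lipase, had the highest mean ratio of the 10 genes with each inhibitor when probes were averaged, whereas with the brightest probe of each gene VEGFA was higher with HIPP, at 3.39. Its log2 ratios were 2.29, 2.71, 2.74, 3.65 and 1.92 with HIPP, a mean of 2.66 ± 0.65 (SD, n = 5) or 6.33-fold. They were 2.40, 2.62, 2.32, 2.63 and 2.67 with P4, a mean of 2.53 ± 0.16 or 5.77-fold. In shCtBP2 cells they were −0.03, 0.19, 0.14, 0.04 and 0.14, a mean of 0.10 ± 0.09. The ranges of HIPP and P4 overlapped and both lay far above that of shCtBP2. Its control signal was 1807 to 3909 units over the 15 arrays, well above background on all, and its treated signal reached 39018 with HIPP. Across the alternative settings the value stayed between 2.41 and 2.85 with HIPP and between 2.47 and 2.74 with P4. Of the 7 other angiopoietin-like genes 1 was called, ANGPTL2, at −0.59 in shCtBP2 cells (adjusted p = 0.00552, chosen after its values were seen, and not called with slide as a fixed block), and 0 with HIPP or P4 (7 tested with each, 1 lower with HIPP and 2 higher with P4 at any fold, and 2 higher and 1 lower and 4 higher and 1 lower at an unadjusted p under 0.05). The all-gene share called lower in shCtBP2 cells was 3.23%, and at any fold 14.3 and 28.6% of the list passed with HIPP and P4, beside 48.8 and 31.9%.

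**Figure D3:**
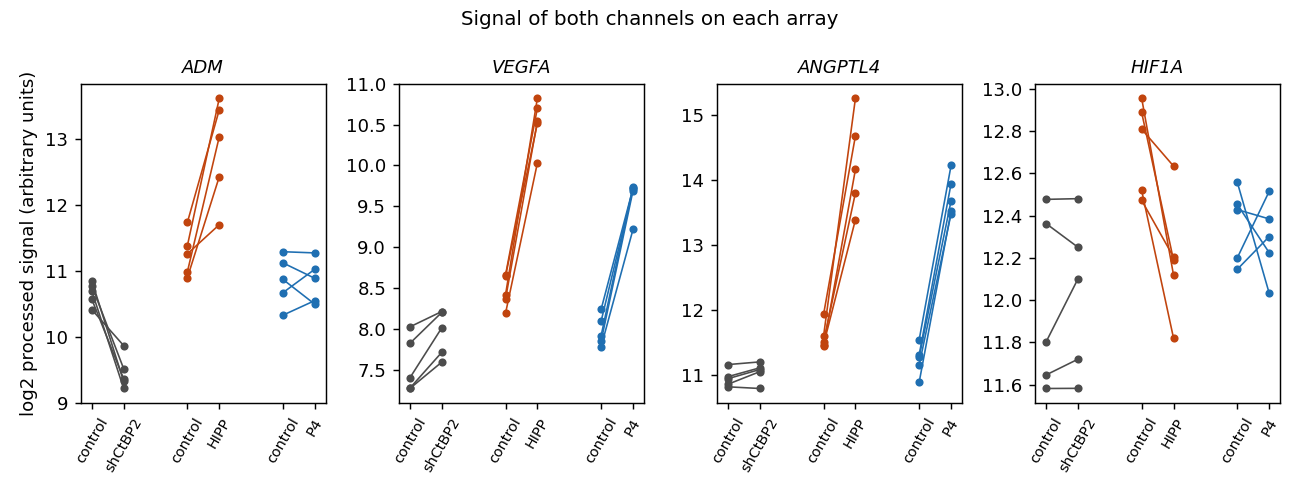
Log2 processed signal in arbitrary units (vertical axis, a separate scale for each gene) of ADM, VEGFA, ANGPTL4 and HIF1A in the control and the treated channel, with a line for each array. The lines of ADM fall in all 5 shCtBP2 arrays and climb in all 5 HIPP arrays, those of VEGFA and ANGPTL4 climb in all HIPP and P4 arrays, and those of HIF1A fall in all 5 HIPP arrays.

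NDRG1, a stress-response protein strongly induced by hypoxia in many cell types, was above control on most arrays of all 3 treatments. Its log2 ratios were 0.09, 0.52, 0.50, 0.81 and 0.86 in shCtBP2 cells, 1.02, 0.85, 1.20, 0.11 and 0.41 with HIPP, and −0.03, 1.11, 1.09, 0.60 and 0.27 with P4. The means of 0.56 ± 0.31, 0.72 ± 0.45 and 0.61 ± 0.50 lay within 1 SD of each other, the ranges overlapped, and 14 of 15 arrays were above control. With slide as a fixed block the values were 0.90, 0.85 and 0.10 in shCtBP2, HIPP and P4, and under normexp and loess they were 0.32, 0.44 and 0.36. The means of its 2 probes were 0.56 and 0.56 in shCtBP2 cells, 0.79 and 0.65 with HIPP, and 0.59 and 0.63 with P4. Of its 3 relatives NDRG2 was called, at 0.59 in shCtBP2 cells (adjusted p = 0.0356, chosen after its values were seen). It was called in 7 of 17 alternative settings, with 0.04 under normexp correction and loess and no call without replicate 2 (0.35), 4 (0.63) or 5 (0.56). With the inhibitors 0 were called (2 tested with each, 1 lower with HIPP and 1 higher with P4 at any fold, and 1 higher and 1 lower and 1 higher at an unadjusted p under 0.05). The all-gene share called higher in shCtBP2 cells was 3.34%, and at any fold 48.8 and 31.9% of all genes passed with HIPP and P4.

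BNIP3, a receptor on mitochondria that marks them for mitophagy, was above control in shCtBP2 cells and near or below it with the inhibitors. The log2 ratios were 0.35, 0.76, 0.08, 0.89 and 0.82 in shCtBP2 cells, a mean of 0.58 ± 0.35 or 1.49-fold. They were 0.03, −0.04, −0.18, −0.74 and −0.25 with HIPP, a mean of −0.24 ± 0.30, and 0.03, −0.13, −0.50 and −0.20 with P4, a mean of −0.20 ± 0.23 over 4 arrays, since the spot of P4 replicate 1 was marked as an outlier by the scanner software. The shCtBP2 range lay above those of both inhibitors, which overlapped. BNIP3L, its close relative, had 0.27 ± 0.33 (adjusted p = 0.109), 0.33 ± 0.17 (not tested) and 0.07 ± 0.09 (adjusted p = 0.63) in shCtBP2, HIPP and P4, and the brighter of its 2 probes turned the sign with HIPP (−0.39) and P4 (−0.37).

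The wider HIF pathway was followed with lists of further genes, 114 of them on the arrays and none a member. In shCtBP2 cells 6 of the 100 tested were called higher and 5 lower, beside 3.34 and 3.23% of all genes, and the median ratio was 0.13 beside 0.04. With HIPP 4 of 101 were called higher and 3 lower, beside 3.43 and 3.62%, with a median of 0.07 beside 0.08. With P4 11 of 99 were called higher and 3 lower, beside 4.29 and 4.17%, with a median of 0.19 beside 0.11, but with slide as a fixed block 9 were higher and 10 lower. Of the genes called, 1 in shCtBP2 cells (CXCR4) and 1 with P4 (EPO) were above background on 0 arrays in either channel and have no fold. At an adjusted p under 0.05 and any fold, 31 list genes were higher and 29 lower with HIPP, beside 24.9 and 23.9% of all genes. The split of calls over all genes with P4 was 50.7% higher, and on background-subtracted signals centered on each array's median it was 39.5%. In shCtBP2 cells the count called higher was 3 without replicate 2 and 2 without replicate 4, and that called lower 3 without replicate 1, while with HIPP the count called lower was 5 without replicate 1. With normexp correction and loess 4 of the 11 genes remained called in shCtBP2 cells (EPAS1, DDIT4, TGFA and CA2), 4 of the 7 with HIPP (LOX, DDIT4, TFRC and HMOX1) and 8 of the 14 with P4 (ENO1, LOX, DDIT4, MXI1, BHLHE40, TFRC, HMOX1 and VLDLR).

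The targets outside glucose metabolism supplied most of these calls. Of 45 such genes, 4 were higher and 2 lower in shCtBP2 cells (42 tested), 4 and 2 with HIPP (40 tested) and 9 and 2 with P4 (40 tested), beside all-gene shares of 3.34 and 3.23%, 3.43 and 3.62%, and 4.29 and 4.17%. With slide as a fixed block 8 were higher and 3 lower with P4. HMOX1, which encodes heme oxygenase and is also a classical target of the oxidative stress factor NRF2, rose by 4.11 ± 0.37 with HIPP, from 3.58 to 4.43 (17.2-fold, adjusted p = 2.38e-10), and by 2.45 ± 0.31 with P4 (adjusted p = 5.32e-08). In shCtBP2 cells it had 0.43 ± 0.16 (adjusted p = 0.0473), short of the fold threshold. DDIT4, an inhibitor of mTORC1 that the amino acid stress factor ATF4 also induces, rose with all 3 treatments, by 1.10 ± 0.34 in shCtBP2 cells (adjusted p = 0.000111), 1.73 ± 0.29 with HIPP (adjusted p = 1.3e-07) and 2.61 ± 0.26 with P4 (adjusted p = 3e-08), and it was called in all 17 alternative settings of each. LOX, a collagen cross-linking enzyme, rose by 2.29 ± 0.41 with HIPP (adjusted p = 7.47e-08) and 1.43 ± 0.46 with P4 (adjusted p = 2.99e-05), and VLDLR, a lipoprotein receptor, 2.84-fold with HIPP and 2.83-fold with P4 (adjusted p = 4.22e-06 and 2.05e-05). TFRC, the transferrin receptor, fell by 1.83 ± 0.90 with HIPP and 1.67 ± 0.69 with P4 (adjusted p = 6.45e-05 and 0.000414), and RAB20, a small GTPase, had −1.61 ± 0.39 and −0.93 ± 0.39 (adjusted p = 6.59e-07 and 0.000357), with −0.48 and −0.36 and neither call under normexp correction and loess. All 5 arrays of a treatment lay on the side named for each of these genes.

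Among list genes called in shCtBP2 cells with 1 direction on all arrays and a signal well above background on at least 4 of 5, those of largest ratio beside EPAS1 and DDIT4 were TGFA, PPFIA4, CA2 and SPAG4. TGFA, a ligand of the EGF receptor, fell by 1.76 ± 0.18, from −1.94 to −1.51 (adjusted p = 1.3e-07). It was called in all 17 alternative settings, with values from −1.77 to −0.95, the last with normexp correction and loess. It had −1.05 ± 0.31 with HIPP, short of the fold threshold (adjusted p = 1.71e-06), and 0.06 ± 0.13 with P4. PPFIA4, a liprin, rose by 0.99 ± 0.62 in shCtBP2 cells (adjusted p = 0.0247) and was called in 11 of 17 settings, not without replicate 2, 4 or 5 (1.06, 0.82 and 0.83), with −0.07 when the slide was a fixed block, and it had −0.76 ± 0.39 with P4 (adjusted p = 0.0439), which became −0.19 under normexp and loess and turned to 0.31 with slide as a fixed block. SPAG4, a protein of the nuclear envelope, rose by 0.62 ± 0.31 in shCtBP2 cells (adjusted p = 0.00133, called in 12 of 17 settings, not without replicate 4 or 5, at 0.54 each) and 0.93 ± 0.13 with P4 (adjusted p = 1.91e-05), and had 1.31 ± 0.15 with HIPP (2.48-fold, just under the threshold, adjusted p = 1.59e-07).

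Enzymes and transporters of glucose metabolism are the most widely shared HIF targets. Of 20 on the arrays, 0 were called in shCtBP2 cells (14 tested, 1 higher and 1 lower at any fold, and 5 and 3 at an unadjusted p under 0.05) and 0 with HIPP (18 tested, 5 higher and 9 lower at any fold, and 6 and 10 unadjusted). With P4 1 of 15 was called, ENO1, an enolase, at −0.96 ± 0.33 (adjusted p = 2.86e-05, below control on all 5 arrays, chosen after its values were seen), and with slide as a fixed block 1 was higher and 4 lower. ENO1 also had −1.11 ± 0.22 with HIPP (adjusted p = 1.51e-06) and −0.41 ± 0.11 in shCtBP2 cells (adjusted p = 0.0265). Both were below control on all 5 arrays and short of the fold thresholds. The all-gene shares called were 6.57, 7.05 and 8.46%. At any fold 77.8% of the list passed with HIPP and 60% with P4, beside 48.8 and 31.9% of all genes. The median ratio of the list was 0.11, −0.34 and 0.09 in shCtBP2, HIPP and P4, beside 0.04, 0.08 and 0.11 over all genes tested. Genes chosen after their values were seen show the spread with HIPP. The lactate dehydrogenase gene LDHA had −1.07 (adjusted p = 1.06e-06), PGK1 −0.69 (adjusted p = 0.000851) and the glucose transporter gene SLC2A1 −0.64 (adjusted p = 8.97e-05), whereas the hexokinase gene HK2 had 1.18 (adjusted p = 0.000223) and the lactate exporter gene SLC16A3 0.76 (adjusted p = 7.6e-05), all short of the fold threshold.

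**Figure D4:**
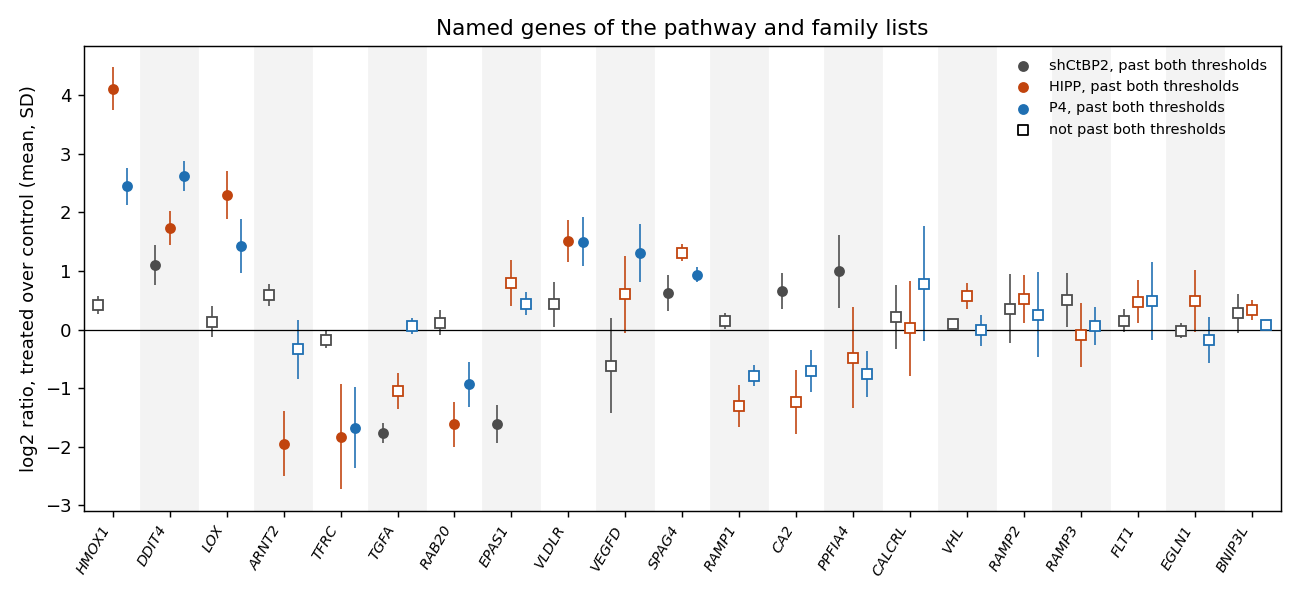
Mean log2 ratio of treated to control signal (vertical axis) with the SD over 5 arrays for the named genes of the pathway and family lists, with filled circles for genes past both thresholds of a treatment and open squares for the others (CALCRL, RAMP2, RAMP3 and FLT1 were near or below background). HMOX1 reaches 4.11 with HIPP, DDIT4 is called with all 3 treatments, and EPAS1 has −1.61 in shCtBP2 cells against 0.80 with HIPP.

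The pattern of ADM over the 15 arrays was set against that of the other members and of all well-measured genes. The root mean square difference of the members' log2 ratios from those of ADM was 1.02 for CA12, the nearest, and 1.90 for ANGPTL4, the farthest, beside 1.23 for a gene with no change on any array and a median of 1.29 over the 12621 genes measured on all arrays and well above background in both channels on at least 12. The 5 genes with the smallest difference among these were TTL, a tubulin-tyrosine ligase (0.49), BCL2L11, the pro-apoptotic protein BIM (0.51), KRTCAP3 (0.54), RGPD5 (0.55) and ADAMTS1, a secreted metalloprotease (0.55). TTL had means of −0.58 ± 0.07, 1.42 ± 0.31 and 0.10 ± 0.21 in shCtBP2, HIPP and P4. ADAMTS1 had −0.61 ± 0.22, 1.71 ± 0.42 and 0.31 ± 0.28. RGPD5 belongs to a family of near-identical genes, so its probe may also detect its copies. These genes were selected for their likeness, which is therefore not tested.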

How the data were processed

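The authors scanned 15 dual-color arrays and processed them with Agilent Feature Extraction (9.5.3.1 per the file headers). They deposited processed signal intensities of both channels, corrected for background and dye, and log10 ratios, from which the value table of the series was taken. From the intensities, log2 of Cy5 over Cy3 was computed per spot, without the 78 to 265 spots per array marked as non-uniform or outliers, and averaged over the spots of a probe and the probes of a gene. Genes measured on at least 3 arrays of a treatment entered the test, without the 11% with the lowest interquartile range over the channel signals. Ratios were tested against 0 with limma (3.58.1), all 15 arrays in one fit and Benjamini-Hochberg adjustment over 27579 genes per treatment. In simulated data, 99% of changes of 2 log2 units were recovered for shCtBP2, 96% for HIPP and 98% for P4, and of changes of 1 unit 72%, 6% and 63%. Recovery required the fold threshold of the treatment. A change of 1 unit lies under the 2.5-fold threshold of HIPP, so the 6% follows from that threshold and does not measure sensitivity. Of the genes left unchanged, 12, 1 and 20 were called. The members and gene lists were chosen with earlier results of these data known. Named list genes were the 6 called with the largest ratio in each comparison, of 1 direction on all arrays and well above background in a channel on at least 4 of 5, and the receptors and regulators CALCRL, RAMP1, RAMP2, RAMP3, FLT1, EPAS1, EGLN1, VHL and BNIP3L. The bound for a gene with 1 channel at background used normexp correction (offset 50), loess and quantile normalization of the mean intensities, with dim signals raised to the lowest signal above background, and holds for these steps. Alternatives were another background correction, centering, probe, filter, block, test and fold threshold, the deposited value table, and leaving out each array. Probe positions are those of the annotation in the files (hg17). Promoter sequences are from RefSeq (GRCh38.p14).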

Additional observations from a re-analysis of the deposited data

Results flagged for a closer look

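Among 74 sets of 5 arrays for the named genes, 1 array stood apart from the others by its gap to the nearest, and chance alone flags about 1 in 20 such sets. It was HIPP replicate 4 for LOX, with a log2 ratio of 1.57 where the other 4 arrays lay between 2.37 and 2.55. Some genes lay on opposite sides of control on all arrays of 2 treatments, and these differences were not tested. ADM had −1.20 with the hairpin and 1.59 with HIPP. EPAS1 had −1.61 in shCtBP2 cells, against 0.80 with HIPP and 0.44 with P4. CA2 had 0.65, −1.23 and −0.71 in the same order. PPFIA4 had 0.99 in shCtBP2 cells and −0.76 with P4, but with slide as a fixed block both signs turned, to −0.07 and 0.31, and ARNT2 had 0.59 in shCtBP2 cells and −1.95 with HIPP.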

How the results depend on the processing

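Of 387 values of the 10 members under the alternatives, 15 changed sign. Of these, 1 was of a called value, that of KDR in shCtBP2 cells, to −0.0333 with normexp correction and loess, 7 were of CA9, and the others were of ratios between −0.20 and 0.10 of HIF1A, CA12, ANGPTL4, ADM and BNIP3 in shCtBP2 or P4. Apart from this 1 KDR value, 362 moved by less than 1 SD between replicates and 24 by more. Normexp correction and loess left 269, 280 and 586 genes called over the arrays in shCtBP2, HIPP and P4, against 1812, 1943 and 2334, with 2, 3 and 6 list genes higher and 2, 1 and 2 lower. The methods' Student's test gave 968 genes for shCtBP2 and 891 for P4, with 3 list genes higher and 3 lower in shCtBP2 cells and 7 higher with P4. At any fold 3734, 13449 and 8806 genes passed, with 12, 31 and 25 list genes higher and 8, 29 and 18 lower. A 1.5-fold threshold gave 8982 genes for HIPP and 4830 for P4, with 18 list genes higher and 23 lower with HIPP and 12 lower with P4. Background-subtracted, centered signals gave 2 list genes lower in shCtBP2 cells and 5 with HIPP, spots above background alone gave 3 lower in shCtBP2 cells, and the slide as a fixed block gave 5 lower with HIPP and 10 lower beside 9 higher with P4. Leaving out 1 array gave 1299 to 1642 genes for shCtBP2, 1731 to 2231 for HIPP and 2098 to 2806 for P4, with list counts of 2 to 6 higher and 3 to 5 lower for shCtBP2, 4 to 5 and 3 to 5 for HIPP, and 10 to 13 and 2 to 4 for P4. The cause of these shifts was not tested. Same-numbered arrays of different treatments deviated together in part, with correlations from −0.03 to 0.47, a median of 0.17 and 13 of 15 pairs over 0.1. Arrays of different numbers had correlations from −0.49 to 0.48, a median of −0.09 and 19 of 60 pairs over 0.1. Of the 15 arrays 7 correlated best with an array of their own number. The main fit did not pair the samples by number, and these values do not settle whether the numbers mark pairs. With the replicate number as a block, 2219, 1942 and 2430 genes were called, with 7, 4 and 11 list genes higher and 5, 3 and 3 lower. Genes near background (CA9, KDR, CALCRL, RAMP2, RAMP3 and FLT1) are limited by signal, and no member's level can be set against another's.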
